A study of Mus musculus with 4 samples.

Results

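The genes described here are those that build fatty acids and cholesterol in the skin, together with the regulators that set their transcription. They were chosen by name, as the probe sets whose platform annotation gives 1 of 41 listed gene symbols, and 36 of the 41 had a probe set on at least 1 of the 2 array types, out of 13674 named genes in all. The first array type carried 29 of them and the second 16, with 9 on both. Signals of Acat2, Acsl1, Dgat2, Elovl4 and Soat1 were not analysed here.

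RNA came from whole skin of loricrin knockout mice and of wildtype mice, all of strain FVB/N and taken at postnatal day 0. The knockout and the wildtype had 2 arrays each, 1 on each array type, so each ratio within a type compares 1 knockout array with 1 wildtype array and has no replicate error. The labels call the second array of each genotype a replicate and do not say whether it held RNA of another animal. They give neither the number of animals pooled nor the design of the knockout allele.

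The outermost layers of the epidermis hold water by means of sheets of ceramides, cholesterol and free fatty acids, which keratinocytes make themselves in the course of differentiation. Cholesterol and fatty acids both start from cytosolic acetyl-CoA. The transcription factors encoded by Srebf2 and Srebf1 drive mainly the cholesterol and the fatty acid enzymes. They are escorted from the endoplasmic reticulum by Scap when sterols are low, and held there by the Insig proteins when sterols are plentiful. In skin the same enzymes also serve sebaceous glands and fat cells, so whole-skin signal sums several sources. In such bulk tissue, fewer cells of a type and less RNA per cell cannot be told apart.

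Loricrin (Lor), the targeted gene, had a signal of 2013 on the knockout array and 41224 on the wildtype array of the first type, 20.5-fold lower in the knockout. It was not analysed on the second type. Signals are the authors' MAS5 intensities, and ratios are log2 of knockout over wildtype after scaling the arrays of a type to an equal trimmed mean. Signals under a floor of 77.6 (first type) or 133 (second type) were set to the floor. A gene entered the counts below if its mean log2 signal over both arrays lay above that floor, which held for 27 of the 29 genes on the first type and 14 of the 16 on the second. The size of error can be read only from genes with more than 1 measurement. Over 1081 genes above the floor on both types the error SD of a single log2 ratio was estimated at 0.40, or 0.29 over the 302 genes whose mean signal was at least 512 on both. It was derived from the difference between a gene's ratios on both types, not from the scatter of ratios among genes. The ratios repeated weakly, with a Pearson correlation of 0.18 and the same sign in 56.4% of genes (0.36 and 62.3% over the 302). Transcripts of the sex chromosomes differed as well. On the first type Xist read 857 in knockout skin and 24.7 in wildtype skin, and the Y-linked Eif2s3y 42.7 in knockout skin and 1071 in wildtype skin, so sex and genotype cannot be told apart.

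As a group the lipid synthesis genes differed little between the genotypes, and 1 of them, the desaturase gene Scd1, differed by more than 2-fold. On the first type 1 of 27 genes was at least 2-fold higher in knockout, where 1.19% of the 5653 genes above the floor were, and 0 of 27 were at least 2-fold lower, where 1.84% of all were. At 1.5-fold, 4 of 27 were higher, against 6.24% of all genes, and 0 lower, against 6.76%. The share of all genes higher at 1.5-fold fell with signal, so these shares are not matched to the lipid genes. It was 8.29% at a mean log2 signal under 9, where 4 of the 27 lay, and 2.15% at 12 or more. The median log2 ratio was 0.07 over the 27, beside 0.02 over all genes, and 15 of the 27 were positive. On the second type 0 of 14 reached 2-fold in either direction, where 2.32% of all genes were higher and 2.82% lower. None of the 14 reached 1.5-fold either, where 9.05% were higher and 10.3% lower, and their median was 0.05 beside 0.01 over all genes. Here too the share higher at 1.5-fold fell with signal. It was 13.9% at a mean log2 signal under 9, where 6 of the 14 lay, and 2.15% at 12 or more. The first-type ratios ran from -0.43 to 1.30, the second-type ones from -0.44 to 0.43. These directions are relative to the typical gene: a scaling on the bacterial spike-in probe sets moves the median of all genes to 0.70 and 0.65, and under it all 27 genes on the first type have positive ratios.

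**Figure D1:**
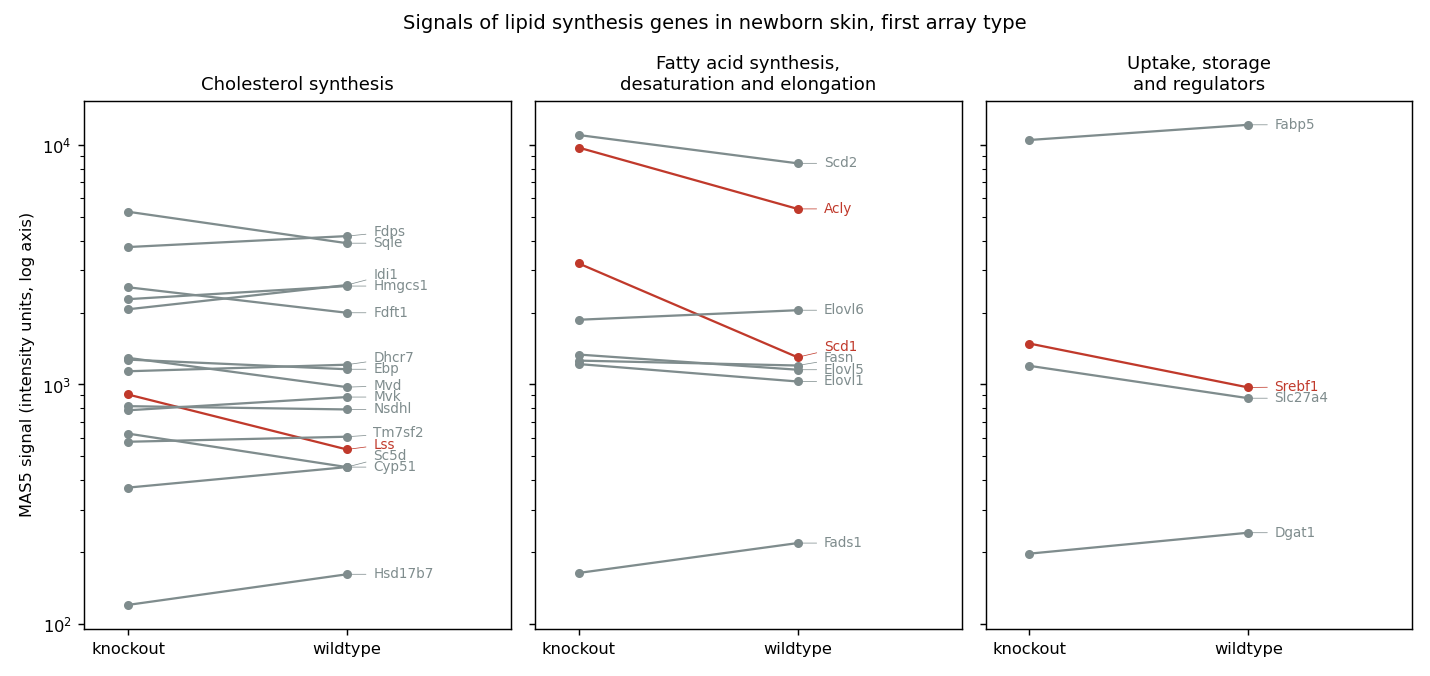
MAS5 signal (intensity units, log axis), in 3 panels by role, of each lipid synthesis gene above the floor on the knockout array and the wildtype array of the first type, 1 line per gene, with the 4 genes at least 1.5-fold higher in knockout in red. Scd1 has the steepest line, 3208 in knockout skin and 1299.6 in wildtype skin, while most other lines are nearly flat.

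The largest first-type ratios were those of Scd1 and Acly, followed by the cholesterol gene Lss and the regulator Srebf1. The other genes of fatty acid synthesis and desaturation stayed under 1.5-fold on each type where their mean lay above the floor. Scd1 encodes stearoyl-CoA desaturase, which puts the first double bond into saturated fatty acids. Its probe set of highest mean signal read 3208 in knockout skin and 1299.6 in wildtype skin, a log2 ratio of 1.30 or 2.47-fold higher. It ranked 21 from the top among the 5653 genes above the floor. A second Scd1 probe set read 1289 in knockout skin and 771 in wildtype skin, 1.67-fold higher, and another lay under the floor on both arrays at 54.7 and 19.3. The 2 measured probe sets therefore placed Scd1 higher in knockout but differed in size. Both were read on the same arrays and the dimmer of them carries a name suffix, so their agreement does not show that the difference repeats. With the median over the 3 probe sets of Scd1 the log2 ratio is 0.74 and no gene of the 27 reaches 2-fold.

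Acly encodes ATP citrate lyase, the enzyme that supplies cytosolic acetyl-CoA to both pathways. It read 9788 in knockout skin and 5424 in wildtype skin, a log2 ratio of 0.85 or 1.80-fold higher, and ranked 114 from the top. Scalings that depend on signal raise this ratio past 2-fold, to 1.03 with quantile normalization and 1.04 with loess. In the signal range of Acly the typical gene leaned lower in knockout: the 325 genes with a mean log2 signal of at least 12 had a median ratio of -0.19. Scd2, a paralogue of Scd1, read 11048 and 8413, a log2 ratio of 0.39 that becomes 0.68 with quantile normalization. A second Scd2 probe set, with a suffix for shared sequence, gave 0.28. Cross-hybridisation between the desaturase paralogues cannot be assessed from these files.

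For the steps that commit carbon to fatty acids, no probe set whose mean lay above the floor reached 1.5-fold on either type. Acaca, acetyl-CoA carboxylase, read 1352 in knockout skin and 1096 in wildtype skin on the second type, a log2 ratio of 0.30. Fasn, the fatty acid synthase that builds palmitate, read 1259 and 1200.3 on the first type, a ratio of 0.07. On the second type both Fasn probe sets were dim. The one of higher mean signal read 49.9 in knockout skin and 255 in wildtype skin, at least 1.92-fold lower, and did not pass the floor by its mean, whereas the other read 136 and 152, a ratio of -0.16.

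The desaturases of polyunsaturated fatty acids and the chain-lengthening enzymes that lay above the floor stayed under 1.5-fold on the type or types that measured them, and Elovl1 alone was measured on both. Fads1 read 163 in knockout skin and 217 in wildtype skin on the first type, a log2 ratio of -0.41. Its neighbours in the family, measured on the second type, had ratios of -0.03 for Fads2 and 0.24 for Fads3. Among elongases, Elovl5 had a ratio of 0.21. Elovl6, which extends palmitate to stearate, the substrate of Scd1, read 1865 in knockout skin and 2044 in wildtype skin, a ratio of -0.13, and its other probe set 561 and 693, a ratio of -0.30. Elovl1, needed for the very long chains of skin ceramides, read 1217 in knockout skin and 1029 in wildtype skin on the first array type, a ratio of 0.24. On the second it read 5318 and 7022, a ratio of -0.40, so its direction differed between the types. Elovl3, known from sebaceous glands and hair follicles, lay under the floor on both arrays at 30.4 and 49.2.

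**Figure D2:**
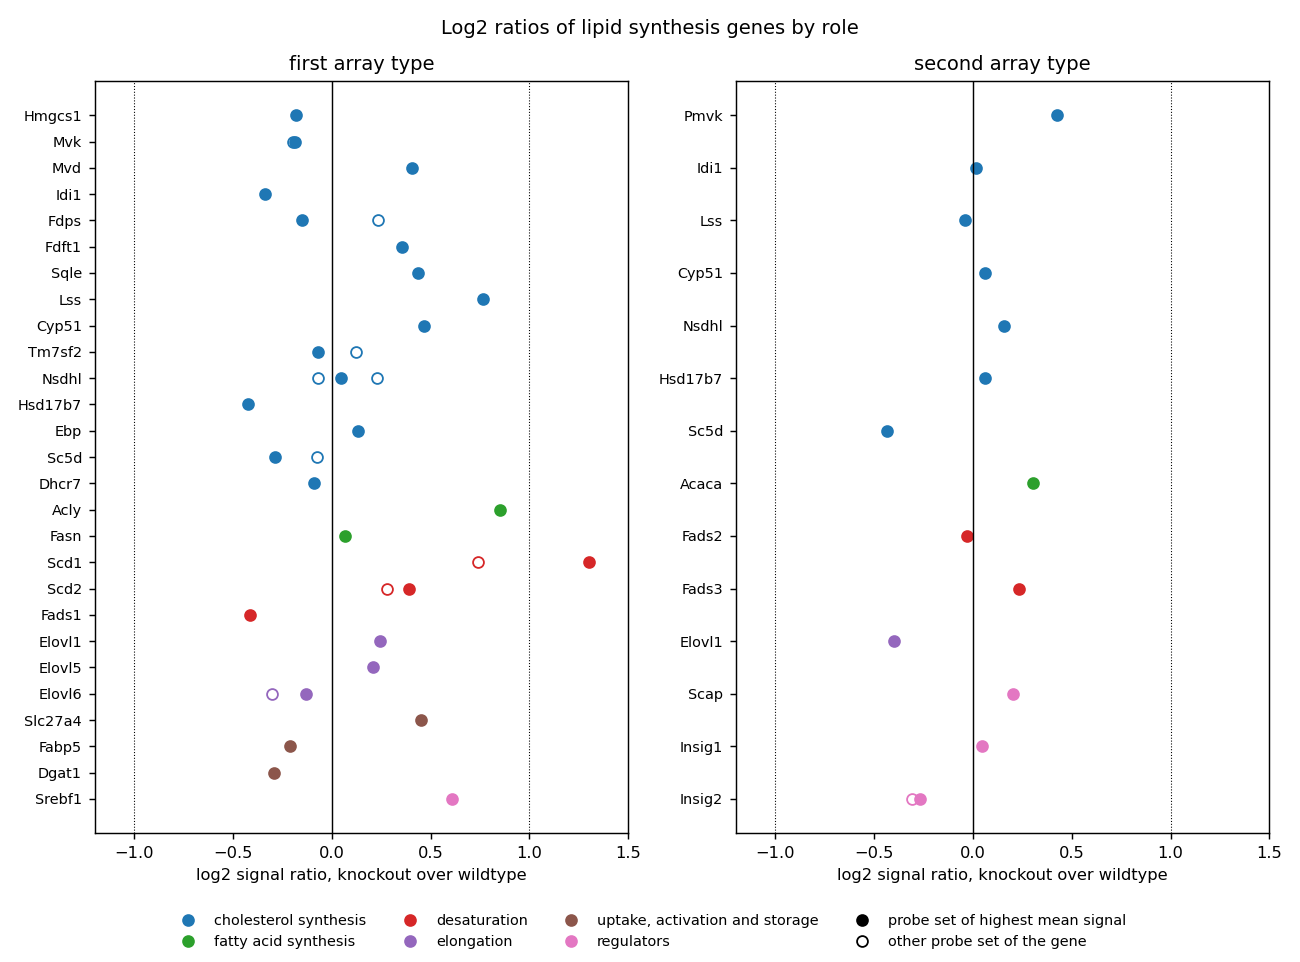
Log2 signal ratio of knockout over wildtype for each lipid synthesis gene above the floor, ordered by role and coloured by it, on the first (left) and second (right) array type. Filled points are the probe set of highest mean signal and open points the other probe sets above the floor, and dotted lines mark 2-fold. Scd1 at 1.30 is the 1 filled point past a dotted line, and every second-type point lies between -0.44 and 0.43.

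Cholesterol synthesis was split on the first type. Of its 15 genes there, 7 had positive and 8 negative ratios, with a median of -0.07 and 1 gene, Lss, past 1.5-fold. The early steps had ratios on both sides of 0. Hmgcs1, which makes the precursor of mevalonate, read 2274 in knockout skin and 2580.0 in wildtype skin, a log2 ratio of -0.18. The mevalonate kinase gene Mvk read 780.0 and 886 on one probe set and 536 and 614 on the other, ratios of -0.18 and -0.20. Idi1, which isomerises the activated isoprene unit, read 2063 and 2605, a ratio of -0.34. The probe sets of Fdps, which joins these units to farnesyl diphosphate, disagreed in direction. One read 3756 in knockout skin and 4175 in wildtype skin, a ratio of -0.15, another 3703 and 3144, a ratio of 0.24, and 2 more lay under the floor. Mvd, the mevalonate decarboxylase gene between these steps, differed from them with 1292 and 975, a ratio of 0.41. Pmvk, which phosphorylates mevalonate a second time, was measured on the second type, at 3719 in knockout skin and 2770.1 in wildtype skin, a ratio of 0.43.

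The 4 consecutive steps from farnesyl diphosphate to demethylated lanosterol, picked out after their values were seen, were all positive on the first type. Fdft1, squalene synthase, read 2550.1 in knockout skin and 1995 in wildtype skin, a log2 ratio of 0.35. Sqle, squalene epoxidase and a rate-limiting step of the pathway, read 5278 and 3899, a ratio of 0.44. Lss, which closes the sterol rings to give lanosterol, read 908 and 535, a ratio of 0.76 or 1.70-fold. Cyp51, the lanosterol demethylase, read 623 and 451, a ratio of 0.47. The later enzymes did not share this. Hsd17b7, a sterol ketone reductase, read 119.7 in knockout skin and 160.8 in wildtype skin, a ratio of -0.43. Sc5d, a sterol desaturase, read 370.4 and 451, a ratio of -0.29, with -0.08 on its other probe set. Dhcr7, which makes cholesterol from its direct precursor, had a ratio of -0.09. Tm7sf2, a sterol reductase, read 576 and 605 on one probe set and 507 and 466 on the other, ratios of -0.07 and 0.12. Ebp, a sterol isomerase, had a ratio of 0.13. Nsdhl, a sterol dehydrogenase, read 812 and 786, a ratio of 0.05, with -0.07 and 0.23 on its other probe sets. Both Ebp and Nsdhl lie on chromosome X, and the part of the sex difference between the arrays in their ratios was not tested.

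The second array type did not repeat the ratios of Lss and Cyp51. Lss there read 483 in knockout skin and 496 in wildtype skin, a log2 ratio of -0.04. Cyp51 read 627 and 602, a ratio of 0.06. The other cholesterol genes on both types were near 0 on the second, with Idi1 at 244 and 242 (ratio 0.01), Hsd17b7 at 1954 and 1872 (0.06) and Nsdhl at 465 and 416 (0.16). Sc5d was the 1 gene with a ratio below -0.2 on both, at -0.29 and -0.44, reading 477 in knockout skin and 645 in wildtype skin on the second type. The other first-type probe set of Sc5d gave -0.08, so this depends on the probe set taken. Sc5d on the first type, and Elovl1 and Hsd17b7 on the second, were measured only by probe sets with a name suffix such as _i_at or _f_at. In limma's blocked model, which fits genotype and array type on the 4 arrays, 0 of the 7 lipid genes above the floor on both types passed an adjusted p of 0.05, and 0 had an unadjusted p under 0.05. Of all 1081 genes, 1 or 0.0925% passed and 110 or 10.2% had an unadjusted p under 0.05. The smallest limma adjusted p among the 7 was 0.60 for Sc5d, whose mean log2 ratio was -0.36 (SE 0.24), followed by 0.65 for Lss with a mean of 0.36 (SE 0.26). The mean ratios of Cyp51, Nsdhl, Elovl1, Idi1 and Hsd17b7 were 0.26, 0.10, -0.08, -0.16 and -0.18. A block fit leaves 1 residual degree of freedom per gene, and limma takes the variance largely from all genes together (13.9 prior degrees of freedom). Its p-values therefore rest more on the typical disagreement between array types, which may be technical, than on that of the gene itself. Scd1, Acly and Srebf1 were measured on the first type only and could not be checked in this way.

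**Figure D3:**
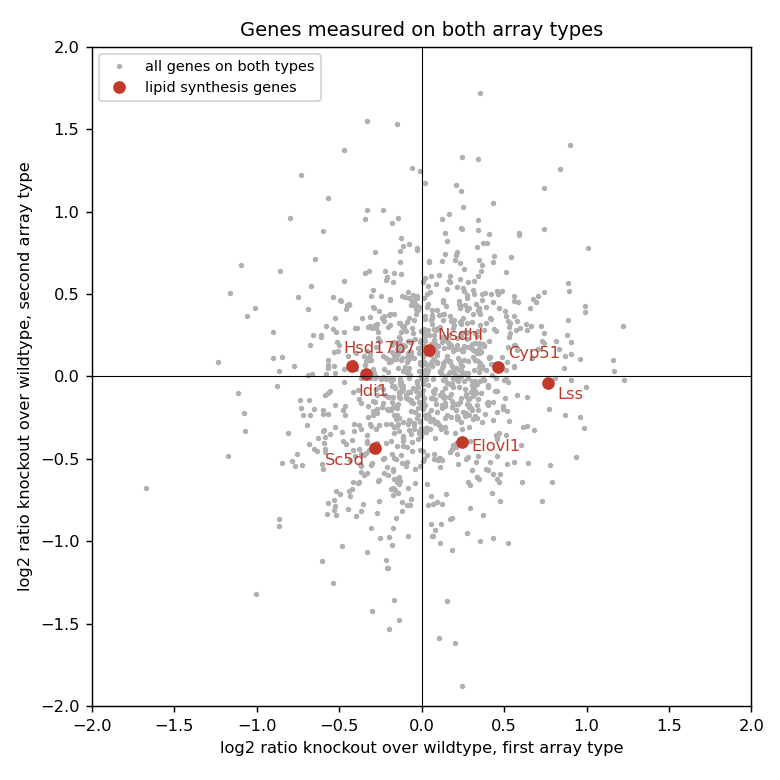
Log2 ratio of knockout over wildtype on the first (x axis) against the second array type (y axis) for genes above the floor on both, with 5 of the 1081 lying outside the axes. Red points are the 7 lipid synthesis genes: Lss and Cyp51 lie near 0 on the y axis, Sc5d is negative on both axes, and Elovl1 changes sign.

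Among the regulators, Srebf1 was 1.53-fold higher in knockout skin, and Scap, Insig1 and Insig2 were under 1.5-fold on the second type. Srebf1 read 1483 in knockout skin and 972 in wildtype skin on the first type, a log2 ratio of 0.61, with 5.50% of all genes above it. Its ratio was 0.54 with quantile normalization and with loess, under 1.5-fold. Scap read 2514 and 2184 on the second type, a ratio of 0.20. Insig2 read 6452 and 7768 there, and 6220.1 and 7707 on another probe set, ratios of -0.27 and -0.31. Insig1 read 287 and 278, a ratio of 0.05, and lay under the floor on both first-type arrays at 4.34 and 1.90. Srebf2 lay far under the floor on both arrays of the second type at 7.70 and 4.65, so the regulator of the cholesterol branch could not be compared.

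Genes of uptake and storage differed among themselves. Slc27a4, the fatty acid transporter whose loss in mice gives a barrier defect at birth, read 1197 in knockout skin and 876 in wildtype skin, a log2 ratio of 0.45. Fabp5, the epidermal fatty acid binding protein, read 10532 and 12192, a ratio of -0.21 that turns to 0.06 with quantile normalization. Dgat1, which catalyses the last step of triglyceride synthesis, read 196 and 239.9, a ratio of -0.29, and its other probe set lay under the floor. Slc27a4 at 0.45 lies a little above the spread of a single ratio between array types, which was 0.40, while Fabp5 and Dgat1 lie under it.

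Set against that spread of 0.40, 8 of 27 first-type ratios were above it and 2 below its negative, while 14.5% and 13.9% of all genes were. The 8 were Scd1, Acly, Lss, Srebf1, Cyp51, Slc27a4, Sqle and Mvd, and the 2 were Fads1 and Hsd17b7. On the second type 1 of 14 was above it, Pmvk, and 2 below, Elovl1 and Sc5d, where 17.5% and 17.8% of all genes were. Of the 4 genes with the largest first-type ratios, Lss alone was measured on the second type as well.

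The promoters of genes that respond to sterols commonly hold sterol regulatory elements beside CCAAT boxes and GC boxes. The sequences just upstream of the start are shown for the 3 genes past 1.5-fold that had a promoter window. Scd1, the gene with the largest ratio, had none. Hmgcs1, a classic sterol target that was not higher, is shown for comparison. Each line is the 250 bases before a start site, from RefSeq on build GRCm38.p6, read on the gene's strand. Capitals mark the letters searched on both strands. The CCAAT box was searched under that name and appears as ATTGG where it lies on the other strand. The GC box was searched as GGGCGG, and the E-box, which SREBP proteins also bind, was searched as CACGTG. The sterol regulatory element was searched in its loose form, written TCACNCCAC, and in a strict form that the loose one covers. The windows are chr11:100528001-100528250 (minus strand) for Acly, chr10:76531355-76531604 (plus) for Lss, chr11:60210472-60210721 (minus) for Srebf1, which is the one of its 3 windows with the most kinds of motif, and chr13:119690101-119690350 (plus) for Hmgcs1.
Acly: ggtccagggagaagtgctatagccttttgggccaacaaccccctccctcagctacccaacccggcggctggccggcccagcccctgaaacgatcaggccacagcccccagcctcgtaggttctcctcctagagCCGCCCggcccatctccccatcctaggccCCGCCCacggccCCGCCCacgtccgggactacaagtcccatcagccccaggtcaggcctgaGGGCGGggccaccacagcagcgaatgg
Lss: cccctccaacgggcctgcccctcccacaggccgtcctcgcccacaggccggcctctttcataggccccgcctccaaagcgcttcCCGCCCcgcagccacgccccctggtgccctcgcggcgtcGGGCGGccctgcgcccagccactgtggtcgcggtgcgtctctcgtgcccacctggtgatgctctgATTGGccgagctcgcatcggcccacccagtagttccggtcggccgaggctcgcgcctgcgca
Srebf1: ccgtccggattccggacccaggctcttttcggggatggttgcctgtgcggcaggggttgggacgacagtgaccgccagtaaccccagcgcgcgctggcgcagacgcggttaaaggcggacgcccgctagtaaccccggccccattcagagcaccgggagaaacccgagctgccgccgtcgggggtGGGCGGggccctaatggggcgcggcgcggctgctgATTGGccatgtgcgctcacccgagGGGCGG
Hmgcs1: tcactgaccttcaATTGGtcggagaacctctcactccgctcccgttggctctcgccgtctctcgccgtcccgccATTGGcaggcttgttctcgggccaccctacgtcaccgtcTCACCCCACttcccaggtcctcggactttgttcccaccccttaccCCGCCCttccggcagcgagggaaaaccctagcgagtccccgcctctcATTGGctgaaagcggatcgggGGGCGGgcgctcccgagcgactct
Lss and Srebf1 each held 1 CCAAT on the reverse strand, starting 62 and 30 bases before the start site, and each 2 GGGCGG. Acly held 4 GGGCGG and no CCAAT in these bases. Hmgcs1 held 3 CCAAT, 2 GGGCGG and 1 TCACNCCAC, and its signal was not higher in knockout.

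Over the full windows of 300 bases, which add 50 bases after the start, 31 of the 41 genes matched with 41 windows. These include windows of Acat2, Acsl1, Elovl4 and Soat1, whose signals were not analysed. The comparison windows are of genes on the arrays only, so the sets are not quite alike. CCAAT was found in 63.4% of the 41 windows, against 37.1% of the 13893 windows of genes on the arrays. GGGCGG was found in 75.6% against 56.8%, and CACGTG in 19.5% against 9.21%. TCACNCCAC was in 2 of the 41 windows (4.88% against 1.27%), those of Acsl1 and Hmgcs1, and the strict form of the element in 0, against 0.0504%. A match is a run of letters and not a site of binding. Genes with CCAAT in a window included Lss, Cyp51 and Srebf1, which were positive on the first type, and Hmgcs1, Idi1 and Sc5d, which were negative there.

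Other genes of the same pathways, outside the 41, were under 2-fold where their mean signal lay above the floor. Below it, Lpin1, a phosphatidate phosphatase of triglyceride synthesis, read 34.3 in knockout skin and 120.2 in wildtype skin on the first type, at least 1.55-fold lower. Among further genes of cholesterol synthesis and uptake, 5 were above the floor on the first type, 4 on the second, 0 reached 2-fold, and the medians were -0.18 and -0.11. Msmo1, a sterol methyl oxidase gene that acts later in the pathway than Cyp51, read 2147 in knockout skin and 2438 in wildtype skin. Its log2 ratio was -0.18, and that of Npc2, a lysosomal cholesterol carrier, was 0.29. Ggps1, which makes geranylgeranyl diphosphate from farnesyl diphosphate and is named after its values were seen, was the 1 gene of this list past 1.5-fold. It read 204 in knockout skin and 329.7 in wildtype skin, 1.62-fold lower, and 219 and 269.7 on the second type, a ratio of -0.30. On the second type Stard4, a sterol transfer protein, had a ratio of -0.10, and Mbtps2, a protease that activates the Srebf products, 0.01. Among further genes of fatty acid and triglyceride synthesis, 12 were above the floor on the first type, 9 of them positive where 52.6% of all genes were, with a median of 0.18 beside 0.02 over all genes. On the second type 7 of 13 were positive where 50.8% of all genes were, with a median of 0.03 beside 0.01. Hacd3 and Hsd17b12, enzymes of the elongation cycle, had first-type ratios of 0.33 and -0.19, and Elovl7 and Gpat4 second-type ratios of -0.44 and 0.14.

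The following suppliers of cytosolic acetyl-CoA and NADPH, picked out after their values were seen, had positive ratios except for Me1 on the second type. Slc25a1, the mitochondrial citrate carrier, read 1506 in knockout skin and 1073 in wildtype skin, a log2 ratio of 0.49. Me1, malic enzyme, read 1945 and 1416, a ratio of 0.46, but 345 and 448 on the second type, a ratio of -0.38. Acss2, which makes acetyl-CoA from acetate, read 299.5 and 186 on the second type, a ratio of 0.69 or 1.61-fold.

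Markers of the cells that share these enzymes were set beside the lipid genes. Of 13 adipocyte markers on the first type, 9 lay under the floor on both arrays, among them Adipoq at 51.9 in knockout skin and 53.9 in wildtype skin and Lpl at 23.7 and 21.2. Fabp4 read 90.7 and 95.1, and the summed adipocyte signal was 1444 and 1371, most of it from Lipe (462 and 381), Lep (370 and 460) and Cidea. Of 6 sebaceous gland markers the summed signal was 2211 in knockout skin and 2175 in wildtype skin, most of it from Prdm1 alone at 1414 and 1221. Cidea counts in both sums, and neither sum measures the amount of fat or gland. Plin2, a coat protein of lipid droplets in many cell types, read 181 and 412, 2.27-fold lower, Cidea 307 and 202, 1.52-fold higher, and the sebaceous receptor gene Mc5r 146 and 141. Krt79 on the second type had a ratio of 0.15.

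Epidermal and dermal markers on the first type are given beside the shares of all genes past 2-fold (1.19% higher, 1.84% lower). Of 4 basal epidermal markers above the floor 3 were at least 2-fold higher in knockout, among them Itga6 at 560 and 183 and Trp63 at 1906 and 913, while Krt5, Krt14 and Krt15 lay under the floor on both first-type arrays. Krt15 on the second type had a ratio of 0.25. Of 8 suprabasal markers 7 were negative, with Krt10 at -0.47 and Krt1 at -0.51, and the 1 that was at least 2-fold lower was the targeted gene Lor itself. Krt10 and Krt1 lay in the brightest signal range, where the median of all genes was -0.19. The dimmer Ivl and Dsc1 were at -0.91 and -0.85, and Krt2, the positive one, was at 0.25. Of 8 dermal fibroblast markers 6 were at least 2-fold lower (Col1a1, Col3a1, Eln, Lum, Pdgfra, Twist2), while Col1a2 and Dcn had ratios of 0.01 and -0.05, with a summed signal of 4004 in knockout skin and 7927 in wildtype skin, and Hba-a1 of red cells was 4.01-fold lower. The part of these differences in the ratios of Scd1, Acly, Lss and Srebf1 was not tested.

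**Figure D4:**
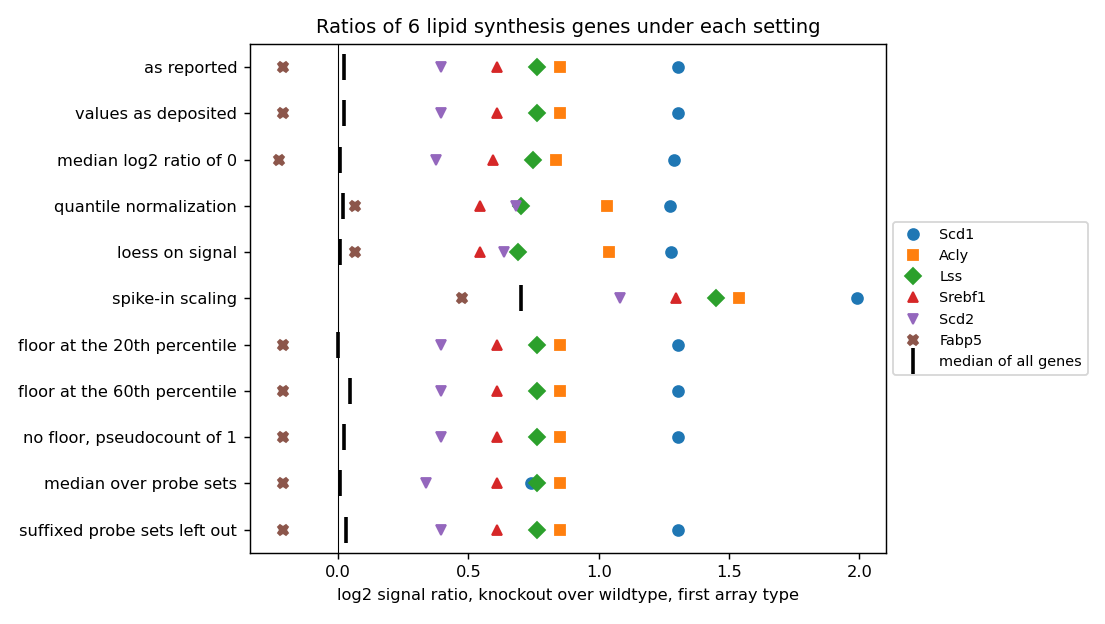
Log2 ratio of knockout over wildtype on the first array type (x axis) for 6 lipid synthesis genes under the reported setting and 10 alternatives (rows), with the median of all genes as a black bar. Scd1 stays between 1.27 and 1.30 under all but 2 settings, dropping to 0.74 with the median over its probe sets and reaching 1.99 with spike-in scaling, which shifts all genes.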

How the data were processed

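Total RNA of newborn whole skin was hybridised to 2 types of expression array, with 1 array per genotype and type (4 arrays). The authors' deposited values are intensities on a linear scale, 1 signal per probe set, and the submitters' processing notes name MAS5 as the tool. The software version and scaling target used are not given in the sources here. The trimmed means of the deposited columns lay between 500.2 and 500.4 and the median signals between 135 and 210 (209.5 on the brightest array). No deposited column was left unmatched.

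Within a type, both arrays were scaled to the same 2% trimmed mean, signals were raised to a floor (the mean of the arrays' 40th percentiles), and log2 ratios were taken. Control probe sets (66 per type) entered the scaling and the percentiles behind the floor, and were then left out. Only probe sets with 1 gene symbol were named, 10833 of 12422 on the first type and 10581 of 12411 on the second, and 10817 and 10550 of these matched a RefSeq gene of GRCm38.p6 by identifier. A gene took its probe set of highest mean signal. With 1 array per genotype no test was possible within a type, so genes were counted at 2-fold and 1.5-fold beside the same share of all genes. Genes on both types were fitted with limma 3.58.1 (R 4.3.3; lmFit, eBayes, Benjamini-Hochberg over all 1081 genes) with the array type as a block. The steps were tested on simulated data first.

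The genes, lists, tests and naming rule were chosen with earlier results of these data known. The rule gave full values for genes past 1.5-fold, on both types, with several probe sets or among the 5 of highest mean signal, and from the other lists those past 2-fold or else the 2 of highest mean signal. It was not followed throughout the marker lists above. On the first type Col17a1 (basal epidermis) was also 2.68-fold and Krt86 (hair follicle) 2.01-fold higher in knockout. Krt35 (hair follicle) was 2.08-fold, Hbb-b2 (red cell) 3.78-fold and Alas2 (red cell) at least 3.23-fold lower. Alternatives changed the scaling, the floor, the fold, the probe sets used and the block. The number of arrays limits the precision.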

Additional observations from a re-analysis of the deposited data

How the results depend on the processing

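With 1 array per genotype and type, no ratio within a type has an error of its own, and only 7 of the 36 genes could be checked on a second type. Directions are relative to the typical gene. Spike-in scaling shifts all genes. With it 10 first-type and 1 second-type lipid genes were at least 2-fold higher. The medians were 0.76 (all genes 0.70) and 0.70 (all genes 0.65). The share of all genes past 2-fold was not counted under the alternative scalings, floors and choices of probe set. With spike-in scaling 3 of the 8 lipid genes fitted passed limma's threshold, Cyp51, Lss and Nsdhl, in place of 0 of 7. Among all genes fitted with that scaling 591 of 1075 passed, so these 3 do not set the lipid genes apart. Under spike-in scaling the mean ratios over both types of Elovl1, Hsd17b7, Idi1 and Sc5d turned positive. They were 0.59, 0.49, 0.51 and 0.31 (limma adjusted p from 0.076 to 0.23). The count of genes at least 2-fold higher on the first type was 2 with quantile normalization and 2 with loess, which add Acly, 0 with the median over probe sets, since the dimmer Scd1 probe sets enter, and 4 at a fold of 1.5. With the floor at the 20th percentile 1 gene, Fasn, was at least 2-fold lower on the second type, and with it at the 60th percentile the first-type median was 0.17 over 24 genes. Without suffixed probe sets the first-type median was 0.13 over 25 genes (all genes 0.03), and no count at 2-fold differed. Values as deposited, a median ratio of 0 and a pseudocount of 1 left the counts at 2-fold as reported, with first-type medians from 0.05 to 0.07.

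The array type served as the block. With no replicate block 0 of the 7 genes passed limma's threshold. Over all genes on both types limma called 1 with the block and 0 without it, 0 with quantile normalization, 10 with loess, 8 with a median ratio of 0, 591 with spike-in scaling, 0 and 6 with the lower and higher floor, 0 with a pseudocount of 1, 8 without suffixed probe sets, and 10 with the median over probe sets. Leaving out 1 array type leaves the ratio on the other, with no test: it ran from -0.04 to 0.76 for Lss, 0.06 to 0.47 for Cyp51, -0.40 to 0.24 for Elovl1, -0.43 to 0.06 for Hsd17b7, -0.34 to 0.01 for Idi1, 0.05 to 0.16 for Nsdhl and -0.44 to -0.29 for Sc5d. Dim probe sets limit Fasn on the second type and leave Elovl3 and Srebf2 without a comparison.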

Other observations

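Fatty acid breakdown, the route opposite to the synthesis genes, was measured mainly on the first type. Of 13 genes of fatty acid oxidation above the floor there, 6 had positive and 7 negative log2 ratios, with a median of -0.005, and 0 reached 2-fold, where 1.19% of all genes were higher and 1.84% lower. Acaa2, the thiolase of mitochondrial beta-oxidation, read 6932 in knockout skin and 8014 in wildtype skin, a ratio of -0.21, and Hadh, a dehydrogenase of the same spiral, 3498 and 4327, a ratio of -0.31. Hadhb, a subunit of the trifunctional protein, and Cpt1a, which admits fatty acids to mitochondria, were chosen after their values were seen and lay on opposite sides, at -0.67 and 0.51. Ppard, a nuclear receptor for fatty acids, had a ratio of 0.37 on the second type, with 3684 in knockout skin and 2856 in wildtype skin.

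Genes of cholesterol efflux and of the oxysterol receptor pathway had mostly positive ratios on the first type, 5 of 6 above the floor where 52.6% of all genes were positive, with a median of 0.32 beside 0.02 over all genes, and 0 reached 2-fold. Apoe, the lipoprotein component that carries cholesterol, read 6472 in knockout skin and 4084 in wildtype skin, 1.58-fold higher. Rxrb, a partner receptor, read 1657 and 1003, 1.65-fold higher. The transporter gene Abcg1, chosen after its values were seen, had a first-type ratio of 0.43 and a second-type ratio of -0.27, and on the second type Rxra had 0.38 and Mylip, which targets the low-density lipoprotein receptor for degradation, 0.15.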
